A study of Homo sapiens with 12 samples.

Results

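The beta-globin cluster is a row of related genes on the minus strand of human chromosome 11 that encode the beta-type chains of haemoglobin. It was taken here as the 200 bp bins of the 80 kb that end at 5300000 on chromosome 11 (hg38), which are 400 of the 15441419 bins counted. Its 5 members are HBE1, HBG2, HBG1, HBD and HBB, named in the order in which they lie from the control region outwards. The control region was taken as the 17 kb that start at 5275001, upstream of HBE1, and holds 85 of the 400 bins. Both strands were read, and the authors' own transcriptional units touching the locus, 5 of 21874, were added to the comparison.

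All libraries came from K562, an established human line derived from chronic myelogenous leukaemia, at passages 3 to 5. The submitters' names for the RNA libraries call the cells wild type. The 4 RNA groups hold 2 libraries each, made from cells given 500 µM 4-thiouridine (4sU) for 5 min. This analogue of uridine is built into RNA while it is being made. TT-Seq RNA was sheared and then purified for the label, 4sU-Seq RNA was purified without shearing, Total RNA-Frag-Seq RNA (sheared total RNA) was not purified, and Total RNA-Seq RNA (unsheared total RNA) had neither step. Chromatin immunoprecipitation (ChIP) of RNA polymerase II used an antibody to serine 2 phosphorylated polymerase (S2P) and the N-20 antibody (N20), with 2 libraries each after 7.5 min of crosslinking, and no input library was analysed here. No treatment was compared with another: the contrasts are between ways of preparing RNA or between antibodies.

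The genes of the cluster are switched on in turn during development. HBE1 encodes the embryonic epsilon chain, HBG2 and HBG1 the fetal gamma chains, HBD the minor adult delta chain and HBB the major adult beta chain. The locus control region is a group of enhancer elements open in erythroid cells, and it is known to drive all of these genes and to be transcribed itself. K562 is known for making embryonic and fetal globin and hardly any adult beta globin. In RefSeq coordinates on chromosome 11, all on the minus strand, HBE1 lies at 5268345 to 5269945, HBG2 at 5253188 to 5254781, HBG1 at 5248269 to 5249857, HBD at 5232838 to 5234483 and HBB at 5225464 to 5227071. HBBP1 (5241954 to 5243592), a globin pseudogene, and BGLT3 (5244554 to 5245546), a long non-coding RNA gene, lie between HBD and HBG1.

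Libraries held 25909021 to 71317148 binned counts for RNA and 12598494 to 73660126 for ChIP. Levels are given in CPM per kb, the count as a share of all counts of the library, on the usual CPM scale, divided by the length in kb, without further scaling. The 2 gamma genes are nearly identical copies, and the placing of reads that match both is not stated in any source read here. The split between HBG1 and HBG2 is thus uncertain, and their totals may be affected too. All 8 RNA libraries were made with the NuGEN Human Whole Blood RNA-Seq System. This kit is known to be built for removing ribosomal and globin transcripts. A globin level beside that of another gene thus carries that step, whose effect was not measured here. Whether the step acted evenly on the members of the cluster was not tested, so their shares may carry it too. Of 17 markers of the erythroid surface and cytoskeleton, 11 had a unit. In TT-Seq, on the strand where each was higher, RHAG stood at 7.01 CPM per kb, while AHSP (0.0498), EPB42 (0.035), CD36 (0.0339) and SLC4A1 (0.0086) lay near 0. Of 18 markers of other cell types, 7 had a unit: VIM reached 28.7 CPM per kb in TT-Seq, KRT18 4.23, KRT19 3.28, PTPRC 1.55 and SPI1 1.53, each on the strand where it was higher. MPO, ELANE, MS4A1 and CD14 lay at or below 0.0357 CPM per kb in TT-Seq on either strand. The part of cells or RNA of another type in any result was not tested.

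The gamma genes were the most abundant members in every RNA library. HBG2 had 19.4 and 16.7 CPM per kb in TT-Seq, 43.5 and 45.5 in 4sU-Seq, 49.8 and 35.3 in sheared total RNA, and 53.0 and 51.0 in unsheared total RNA. HBG1 had 18.5 and 15.8 CPM per kb in TT-Seq, 36.0 and 40.7 in 4sU-Seq, 46.2 and 31.9 in sheared total RNA, and 52.1 and 47.9 in unsheared total RNA. Both TT-Seq libraries lay below every other library for both genes, and the 4sU-Seq values lay inside the range of the 2 sheared total RNA libraries. As a mean, HBG2 stood at 18.1 ± 1.94 CPM per kb in TT-Seq and HBG1 at 17.1 ± 1.88 in the same group (SD, n = 2 each). In each TT-Seq library HBG2 lay slightly above HBG1, by less than the 2 libraries differed from each other. HBG2 took 50.5 to 54.8% of the gamma counts in the 8 libraries. Even after shearing and purification the levels of both ranked above 99.8% of the authors' units in TT-Seq, and above 99.9% in the 3 other groups.

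HBE1, the embryonic gene nearest the control region, had 2.23 and 2.03 CPM per kb in TT-Seq, 8.47 and 8.52 in 4sU-Seq, 12.3 and 8.17 in sheared total RNA, and 11.9 and 10.5 in unsheared total RNA. The TT-Seq libraries were again the lowest and did not overlap any other group. The 4sU-Seq values fell inside the range of sheared total RNA, and the sheared total RNA libraries enclosed both unsheared total RNA values. The mean of the 2 gamma gene levels over the HBE1 level was 8.49 and 7.98 in TT-Seq. It was 4.69 and 5.06 in 4sU-Seq, 3.92 and 4.11 in sheared total RNA, and 4.40 and 4.71 in unsheared total RNA. The first 200 bp bin from the 5′ end held 75 counts for HBE1 in TT-Seq and 290 in unsheared total RNA. It held 19 and 20 for HBG1 and 0 and 3 for HBG2. The ratio thus sets genes covered over unlike parts beside each other, and the cause was not tested. Of all counts on the 5 members, the gamma genes held 94.3 and 93.9% in TT-Seq, 90.3 and 91.0% in 4sU-Seq, 88.7 and 89.2% in sheared total RNA, and 89.8 and 90.4% in unsheared total RNA. HBE1 held most of the rest, with 5.55 and 5.88% in TT-Seq and 8.99 to 11.3% in the other 6 libraries.

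The adult genes were at or near 0. HBD had 4 and 7 counts in TT-Seq, 5 and 1 in 4sU-Seq, 2 and 0 in sheared total RNA, and 1 and 0 in unsheared total RNA, on the minus strand. HBB had 2 and 0 counts in TT-Seq and 0 in each of the 6 other RNA libraries. At these depths 3 counts, the most that a count of 0 allows, correspond to 0.0263 to 0.0724 CPM per kb over a gene of this length, which is the upper limit for a library with no count. Neither gene passed the filter on low counts, and neither was tested. Fewer cells making a transcript and less transcript per cell cannot be told apart in these bulk libraries. All RNA libraries also passed through the kit built for removing globin transcripts, and its part in these low counts was not tested.

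HBD is the only member with a promoter in the reference tables, and it is shown because the authors placed a unit of the mRNA class on the gene, discussed with the other units. The RefSeq promoter (GRCh38.p14, chr11:5234434-5234733, minus strand, 5′ to 3′) spans the start of the gene in 300 bases, with searched motifs in capitals.
HBD promoter: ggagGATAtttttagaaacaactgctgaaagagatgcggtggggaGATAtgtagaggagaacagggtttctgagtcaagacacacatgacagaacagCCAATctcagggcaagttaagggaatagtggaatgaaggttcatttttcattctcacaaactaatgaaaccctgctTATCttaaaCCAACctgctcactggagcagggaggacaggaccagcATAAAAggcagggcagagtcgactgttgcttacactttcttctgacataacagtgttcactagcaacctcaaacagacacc
The motif CCAAT, read on both strands, was found at 153 bases before the start, and CCAAC at 68 bases before it. The motif GATA was found at 246 and 205 bases before the start, and on the other strand, as TATC, at 77. ATAAAA was found at 31 bases before the start. CACCC was not found, and no motif searched overlapped another. Of 35116 promoters of the same length, 34.6% held CCAAT, 38.1% CCAAC, 49.7% GATA, 16.0% ATAAAA and 59.9% CACCC, so each match is one that many promoters hold. The promoters of HBE1, HBG1, HBG2 and HBB are named only.

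**Figure D1:**
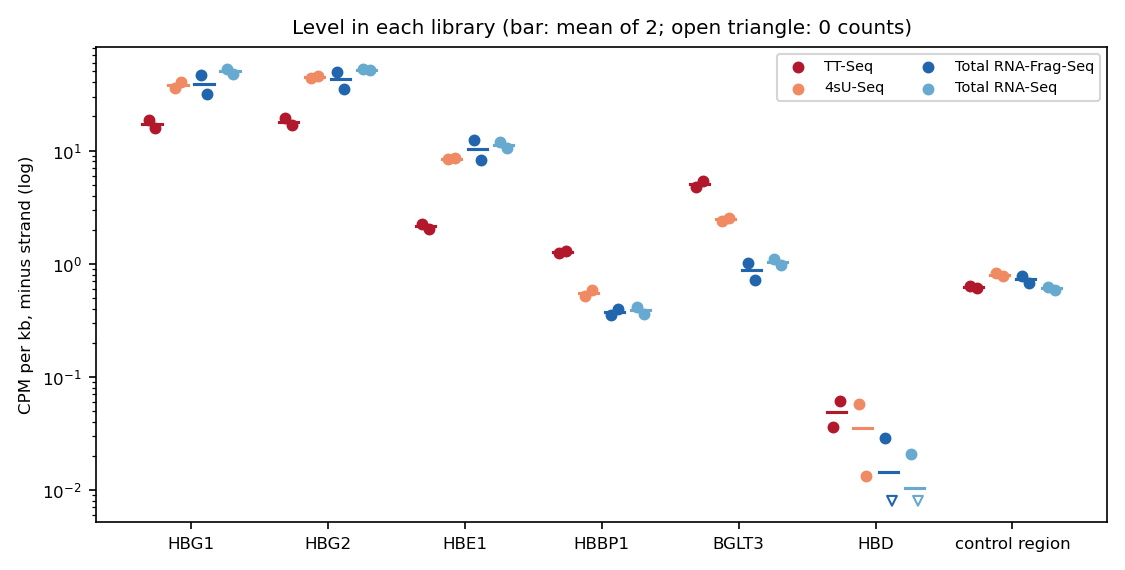
Minus-strand level in CPM per kb (log axis) of 6 genes and the control region in each of the 8 RNA libraries, with the mean of 2 libraries as a bar and 0 counts as an open triangle. TT-Seq lies lowest for HBG1, HBG2 and HBE1 (HBE1 at 2.23 and 2.03) and highest for HBBP1 and BGLT3 (BGLT3 at 4.80 and 5.34).

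The non-coding genes between HBD and HBG1 had the opposite order. BGLT3 had 4.80 and 5.34 CPM per kb in TT-Seq, 2.39 and 2.53 in 4sU-Seq, 1.02 and 0.72 in sheared total RNA, and 1.09 and 0.965 in unsheared total RNA. HBBP1 had 1.24 and 1.29 CPM per kb in TT-Seq, 0.518 and 0.584 in 4sU-Seq, 0.348 and 0.394 in sheared total RNA, and 0.411 and 0.362 in unsheared total RNA. For both genes TT-Seq stood highest, 4sU-Seq next, and the unpurified groups lowest and overlapping each other. The level of BGLT3 came to 26.0 and 33.8% of that of HBG1 in TT-Seq, against 6.66 and 6.21% in 4sU-Seq, 2.21 and 2.25% in sheared total RNA and 2.09 and 2.02% in unsheared total RNA. Both genes were read almost wholly on the minus strand, with 331 and 381 minus counts for BGLT3 in the TT-Seq libraries beside 3 and 0 plus counts. On that strand the gap from HBBP1 to BGLT3 stood above HBBP1 itself, with a mean of 2.52 CPM per kb in TT-Seq and 1.3 in 4sU-Seq. The gap from BGLT3 to HBG1 had 3.65 in TT-Seq, and neither non-coding gene has a unit of its own. RNA running on past HBG1 and RNA of these 2 genes cannot be told apart here.

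Purification of sheared RNA was tested by TT-Seq against sheared total RNA on the 17 regions into which the genes, the control region and the gaps divide the locus. On the minus strand 13 regions passed the filter on low counts: 6 rose, 6 fell and 1 did not pass the test, in a comparison in which 81.0% of all 19362 rows tested were called, 44.7% higher and 36.4% lower. A share of called regions so near that of the whole table is no result about the locus. Among all rows, 55.1% of the calls were higher, and 71.2% were higher when libraries were scaled by their totals alone, which moved the median of all rows by 0.34 on the log2 scale.

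The 3 expressed globin genes fell. HBE1 changed by -2.61 ± 0.15 on the log2 scale (SE, n = 2 against 2, adjusted p = 7.05e-10 by edgeR's quasi-likelihood test), 6.11-fold lower. HBG2 changed by -1.58 ± 0.13 (adjusted p = 1.41e-06) and HBG1 by -1.54 ± 0.15 (adjusted p = 1.01e-05). With only the bins wholly inside HBG1, which leaves out the bin at its 3′ end, its change was -0.87. BGLT3 rose by 2.17 ± 0.18 (adjusted p = 2.28e-09), 4.50-fold, and HBBP1 by 1.44 ± 0.22 (adjusted p = 7.86e-06), 2.71-fold.

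Intervals between genes split along the same line. The gap between HBG1 and HBG2 had 1.10 and 1.25 CPM per kb in TT-Seq and 0.191 and 0.212 in sheared total RNA, and rose by 2.21 ± 0.20 (adjusted p = 5.83e-09). The gap from HBD to HBBP1 rose by 2.19 ± 0.29, and that from HBBP1 to BGLT3 by 1.22 ± 0.25. The gap from BGLT3 to HBG1, which begins where HBG1 ends, had 3.53 and 3.78 CPM per kb in TT-Seq against 1.51 and 1.25 in sheared total RNA, and rose by 1.06 ± 0.13 (adjusted p = 4.17e-07). Counting any bin that touches this gap brings in the end of HBG1, and its change is then -1.32, so the direction here rests on where that single bin is placed. The long gap from HBG2 to HBE1 did not pass the test, with 0.334 and 0.327 CPM per kb in TT-Seq and 0.288 and 0.309 in sheared total RNA (log2 -0.19 ± 0.13, adjusted p = 0.181). The gap from HBE1 to the control region fell by 1.21 ± 0.15 on the log2 scale, and by 2.14 when the bin over the HBE1 start was included.

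**Figure D2:**
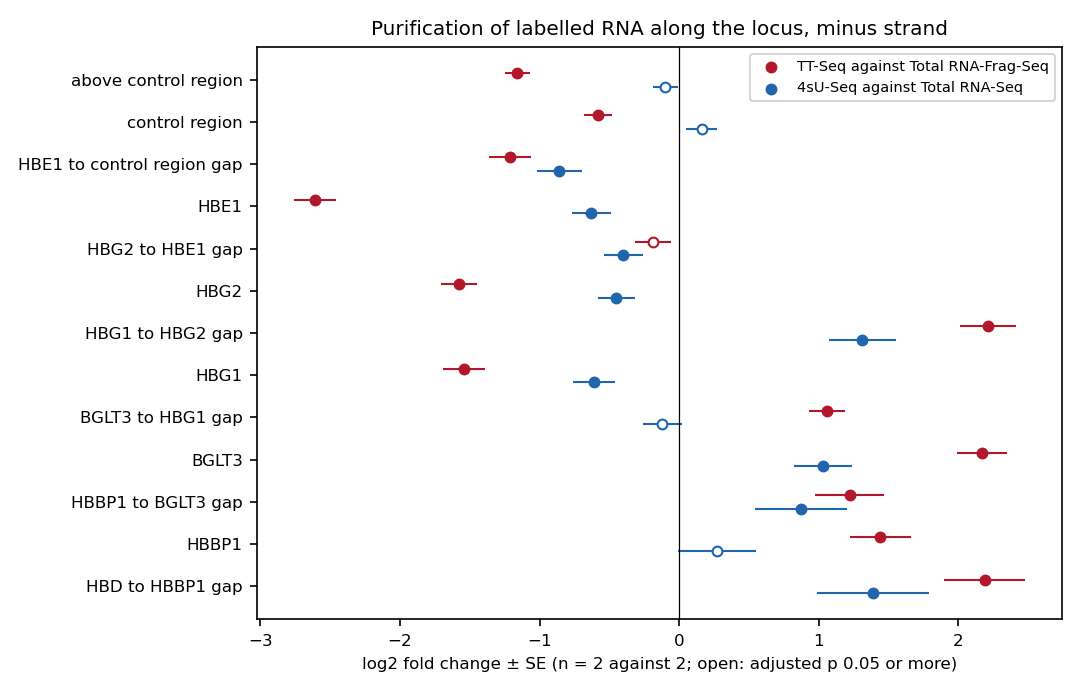
Log2 fold change with its standard error (x axis) of 13 minus-strand regions, ordered from upstream of the control region at the top to the HBD side at the bottom, for the contrast of TT-Seq with Total RNA-Frag-Seq and that of 4sU-Seq with Total RNA-Seq. Filled points passed an adjusted p of 0.05. HBE1 lies lowest (-2.61) and BGLT3 (2.17) and the gap between HBG1 and HBG2 (2.21) lie among the highest.

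Purification of unsheared RNA was tested by 4sU-Seq against unsheared total RNA. The expressed globin genes fell and BGLT3 rose, while HBBP1 did not pass. In all, 4 of 13 minus-strand regions rose, 5 fell and 4 did not pass, in a comparison in which 67.7% of all rows were called, 34.9% higher and 32.8% lower. Of those calls 51.6% were higher, and 69.4% without scaling beyond the library total. BGLT3 rose by 1.03 ± 0.21 (adjusted p = 0.000336) and the gap between HBG1 and HBG2 by 1.31 ± 0.24 (adjusted p = 0.000108), and the gap from HBE1 to the control region fell by 0.86 ± 0.16 (adjusted p = 8.83e-05). These calls were kept in each alternative run, although the last change was -0.30 with the bin over the HBE1 start. HBE1 changed by -0.63 ± 0.14 (adjusted p = 0.00129), HBG1 by -0.61 ± 0.15 (adjusted p = 0.00533) and HBG2 by -0.45 ± 0.13 (adjusted p = 0.0114). These 3 were less firm: HBE1 missed the threshold without unsheared total RNA replicate 1 (-0.46, adjusted p = 0.059), HBG1 without 4sU-Seq replicate 1 (adjusted p = 0.0958) or replicate 2 (adjusted p = 0.0693) and with only the bins wholly inside it (-0.21, adjusted p = 0.144), and HBG2 without any single one of the 4 libraries (adjusted p 0.0715 to 0.157). Without scaling beyond the library total, HBE1 stood at -0.40 (adjusted p = 0.0362), HBG1 at -0.38 (adjusted p = 0.0607) and HBG2 at -0.22 (adjusted p = 0.174). HBBP1 stood at 0.27 ± 0.28 (adjusted p = 0.388). The gap from HBBP1 to BGLT3 rose by 0.87 ± 0.33 and was not called without 4sU-Seq replicate 1 (0.83) or unsheared total RNA replicate 1 (0.46), and reached 1.59 without unsheared total RNA replicate 2. DESeq2's Wald test did not call it (0.81, adjusted p = 0.069). The gap from HBD to HBBP1 rose by 1.39 ± 0.40, a call lost without unsheared total RNA replicate 1 (1.24, adjusted p = 0.0594). The gap from HBG2 to HBE1 fell by 0.40 ± 0.14, a call lost without 4sU-Seq replicate 2 (-0.28), unsheared total RNA replicate 1 (-0.21) or unsheared total RNA replicate 2 (-0.40, adjusted p = 0.0566). That call was also lost without scaling (-0.17), without the filter on low counts (-0.32), with only bins wholly inside (-0.29) and with any bin that touches (-0.31).

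Shearing before purification was tested by TT-Seq against 4sU-Seq, in which 49.0% of all rows were called, 20.9% higher and 28.1% lower, and which shares its libraries with the comparisons above. Of the calls 42.7% were higher, and 53.5% without scaling beyond the library total. On the minus strand 6 of 13 regions rose and 6 fell. HBE1 changed by -2.09 ± 0.15 (adjusted p = 2.56e-08), HBG2 by -1.40 ± 0.13 (adjusted p = 7.45e-06) and HBG1 by -1.26 ± 0.15 (adjusted p = 8.07e-05). HBBP1 rose by 1.11 ± 0.19 (adjusted p = 5.17e-05) and BGLT3 by 0.95 ± 0.14 (adjusted p = 1.25e-05). The gap from HBBP1 to BGLT3 (0.86 ± 0.21) was not called without TT-Seq replicate 1 (0.58, adjusted p = 0.0896). The gap from HBE1 to the control region (-0.40 ± 0.15) was not called without TT-Seq replicate 1 (adjusted p = 0.153), TT-Seq replicate 2 (adjusted p = 0.0941) or 4sU-Seq replicate 1 (adjusted p = 0.115). It was not called without scaling beyond the library total (-0.31, adjusted p = 0.0967) or by DESeq2's Wald test (-0.37, adjusted p = 0.138) either, and was -1.79 with the bin over the HBE1 start.

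Shearing alone was tested on unpurified RNA. In sheared total RNA against unsheared total RNA, edgeR called 0 of 13 minus-strand and 0 of 6 plus-strand regions, where 24.2% of all rows were called (9.39% higher and 14.8% lower), and DESeq2's Wald test also called 0. At an unadjusted p under 0.05 there were 2 on the minus strand and 0 on the plus strand, and minus-strand changes ran from -0.35 to 0.51. HBG1 (-0.33 ± 0.15) and HBG2 (-0.27 ± 0.13) were called lower without sheared total RNA replicate 1, at -0.51 and -0.43. The control region (0.28 ± 0.11) was called higher without sheared total RNA replicate 2, at 0.38 (adjusted p = 0.0474). It was also called higher with DESeq2 size factors (0.30), without the filter on low counts (0.40), with only the 4 libraries compared (0.35) and with any bin that touches (0.39), and HBG1 was called lower with only bins wholly inside (-0.44).

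Whether purification acted differently on sheared and unsheared RNA was tested as an interaction, in which 34.5% of all rows were called, 14.3% higher and 20.2% lower. Of the calls 41.4% were higher (56.9% without scaling beyond the library total). On the minus strand 4 of 13 regions were higher and 5 lower. The difference was largest in size for HBE1, at -1.98 ± 0.21 (adjusted p = 4.62e-06), and stood at -1.13 ± 0.19 for HBG2 (adjusted p = 0.000921) and -0.92 ± 0.21 for HBG1 (adjusted p = 0.00807). For BGLT3 it was 1.15 ± 0.30 (adjusted p = 0.00538), for HBBP1 1.16 ± 0.37 (adjusted p = 0.0184), and for the gap between HBG1 and HBG2 0.90 ± 0.34 (adjusted p = 0.0468). The HBG1 call was lost without 4sU-Seq replicate 1 (adjusted p = 0.0689) or replicate 2 (adjusted p = 0.0522), and the BGLT3 call without unsheared total RNA replicate 1 (0.94, adjusted p = 0.0895). The HBBP1 call was lost without sheared total RNA replicate 1 (0.93, adjusted p = 0.117), unsheared total RNA replicate 1 (0.95, adjusted p = 0.16) or unsheared total RNA replicate 2 (1.10, adjusted p = 0.0683), by DESeq2's Wald test (1.17, adjusted p = 0.0808) and with only bins wholly inside (1.04, adjusted p = 0.0549). The call for the gap between HBG1 and HBG2 was lost without any single one of the 8 libraries (0.66 to 0.98), without the filter on low counts (0.76), by the Wald test (0.90), with only bins wholly inside (0.86) and with any bin that touches (0.78).

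Within each gene the counts were spread differently by protocol, which the gene totals do not show. These bins were picked after their values were seen, so they are described and not tested. The globin genes are each known to carry a pair of introns, the second much the longer, but exon positions were not read from any file here and bins are given by their order from the 5′ end. In HBG1 bins 3 to 6 held 94, 138, 149 and 294 counts in TT-Seq, against 53, 80, 77 and 115 in 4sU-Seq, 15, 18, 8 and 28 in sheared total RNA and 22, 12, 7 and 33 in unsheared total RNA. In CPM these bins were 3.51 to 9.38 times higher in TT-Seq than in sheared total RNA, while the last bin, the densest, stood at 0.333 of its sheared total RNA level. HBG2 had the same shape, with 93, 100, 159 and 157 counts in TT-Seq against 13, 12, 18 and 13 in sheared total RNA in its bins 4 to 7, 3.96 to 6.40 times higher, and 0.342 for its last bin. In HBE1 bins 4 to 7 held 14, 7, 25 and 6 counts in TT-Seq, 1, 2, 1 and 0 in 4sU-Seq, 2, 2, 2 and 3 in sheared total RNA, and 0, 1, 1 and 0 in unsheared total RNA.

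For the gamma genes the share of counts outside 3 bins of each gene gives the same contrast by library. These were the 3 densest bins in unsheared total RNA, used for every library, a choice that favours a low share in that group. For HBG1 it was 17.8 and 18.4% in TT-Seq, 5.79 and 5.90% in 4sU-Seq, 1.22 and 2.46% in sheared total RNA, and 1.86 and 2.37% in unsheared total RNA. For HBG2 it was 13.7 and 11.4% in TT-Seq, 5.47 and 3.91% in 4sU-Seq, 0.872 and 1.44% in sheared total RNA, and 1.32 and 0.899% in unsheared total RNA. For both gamma genes the TT-Seq libraries were highest and the 4sU-Seq libraries next, with no overlap. For HBE1 it was 28.0 and 30.6% in TT-Seq against 12.1 to 16.8% in the other 6 libraries, which overlapped each other. That share does not describe the middle of HBE1, since bin 3 made up most of it in every group, with 88 counts in TT-Seq, 197 in 4sU-Seq, 173 in sheared total RNA and 141 in unsheared total RNA. Bin 3 was itself lower in TT-Seq, at 0.282 of its sheared total RNA level.

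**Figure D3:**
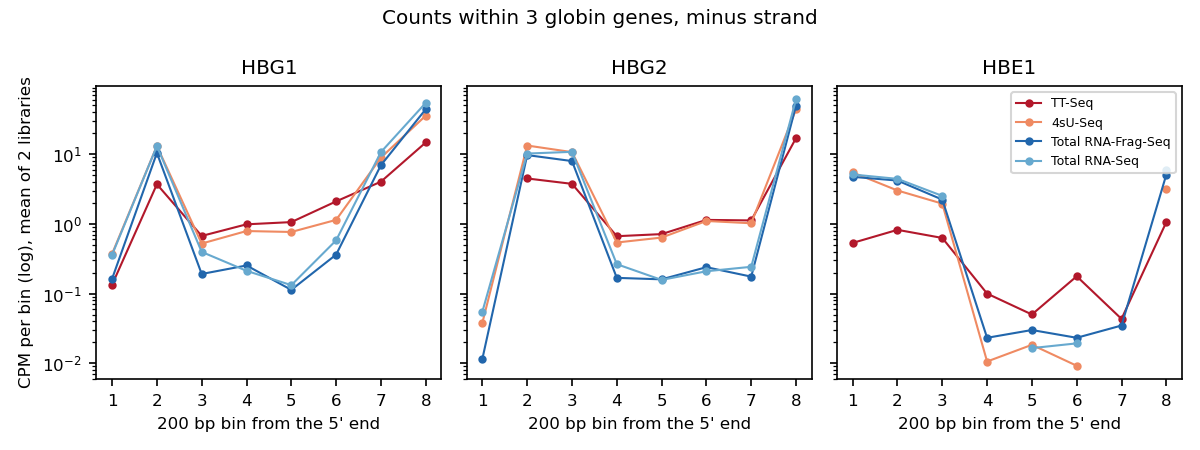
Mean CPM (2 libraries, log axis) in each 200 bp bin of HBG1, HBG2 and HBE1 from the 5′ end, by protocol, with bins of 0 counts not drawn. In the middle bins TT-Seq lies above Total RNA-Frag-Seq (3.51 to 9.38 times in HBG1), and in the last bin it lies below it (0.333 in HBG1).

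The control region carried RNA on the strand of the genes. It had 0.631 and 0.608 CPM per kb in TT-Seq (739 and 737 counts), 0.822 and 0.771 in 4sU-Seq, 0.785 and 0.671 in sheared total RNA, and 0.625 and 0.590 in unsheared total RNA. The 4 groups thus stayed within a narrow band, with TT-Seq below sheared total RNA and 4sU-Seq above unsheared total RNA. As a mean the TT-Seq level, 0.619 ± 0.0162 CPM per kb, ranked above 56.4% of the authors' units and came to 28.3 and 29.9% of the HBE1 level in the 2 libraries, against 6.41 and 8.20% in sheared total RNA. The minus strand held 95.2% (95% exact binomial interval 93.5 to 96.6) and 97.2% (95.8 to 98.3) of the region's counts in TT-Seq, and 96.6 to 98.5% in the other 6 libraries. Such intervals cover counting error only. On the minus strand the stretch above the region stood higher, with a mean of 0.998 CPM per kb in TT-Seq and 1.66 in unsheared total RNA. The authors' long unit that covers both, described below, had 2.47 and 3.77. RNA running in from upstream and RNA begun in the control region cannot be told apart here.

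In TT-Seq against sheared total RNA the minus strand of the control region fell by 0.58 ± 0.10 on the log2 scale (adjusted p = 3.36e-05). It fell by 0.24 (adjusted p = 0.0384) when libraries were scaled by their totals alone, and by 0.89 when everything from HBE1 to 5300000 was counted in. In 4sU-Seq against unsheared total RNA it did not pass (0.16 ± 0.11, adjusted p = 0.176), although it was called higher without 4sU-Seq replicate 2 (0.31, adjusted p = 0.0273), without scaling (0.39, adjusted p = 0.00475) and with any bin that touches (0.25, adjusted p = 0.0437). The interaction was -0.74 ± 0.15 (adjusted p = 0.000507). The stretch above the control region, up to 5300000, had 0.994 and 1.00 CPM per kb in TT-Seq and 1.74 and 1.78 in sheared total RNA. It fell by 1.16 ± 0.09 (adjusted p = 1.18e-09) in that comparison, and its interaction was -1.06 ± 0.13 (adjusted p = 4.68e-06).

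In windows of 1 kb tested across the genome, TT-Seq was lower than sheared total RNA in 7 of the 17 minus-strand windows of the control region and higher in 0, beside 56.1% of 707497 windows called in either direction, 27.6% of all windows higher and 28.6% lower. Among called windows 49.1% were higher, and 64.7% without scaling beyond the library total. The 10 others did not pass, and changes ran from -1.86 to 0.15 with a median of -0.66. Leaving out sheared total RNA replicate 1 left 4 windows lower. In the rest of the locus, 39 of 63 minus-strand windows were tested, of which 11 rose, 15 fell and 13 did not pass. 4sU-Seq against unsheared total RNA, with 31.2% of windows called genome-wide (46.0% of the calls higher, 70.8% without scaling), called 1 control region window higher and 1 lower. That higher call was lost without 4sU-Seq replicate 1 or unsheared total RNA replicate 2, and the lower one without 4sU-Seq replicate 1 or either unsheared total RNA library, each count then being 0. TT-Seq against 4sU-Seq, with 38.5% called genome-wide (46.7% of the calls higher, 66.6% without scaling), was lower in 7 of the 17, and in 4 without TT-Seq replicate 1, 3 without TT-Seq replicate 2 and 2 without 4sU-Seq replicate 1.

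RNA was not even along the control region. The highest window by the mean of all RNA libraries started at 5278001 and had 1.91 ± 0.0463 CPM in TT-Seq, 2.23 ± 0.124 in 4sU-Seq, 1.48 ± 0.0637 in sheared total RNA and 1.14 ± 0.249 in unsheared total RNA (SD, n = 2 each). It was the window called higher in 4sU-Seq against unsheared total RNA (0.65 ± 0.22, adjusted p = 0.0176), and it did not pass in TT-Seq against sheared total RNA (0.06 ± 0.19, adjusted p = 0.819). The next, from 5276001, had 1.37 ± 0.118 CPM in TT-Seq, 2.01 ± 0.160 in 4sU-Seq, 1.12 ± 0.444 in sheared total RNA and 1.19 ± 0.0929 in unsheared total RNA. It did not pass in TT-Seq against sheared total RNA either (-0.05 ± 0.22, adjusted p = 0.851). The third, from 5291001 at the far edge, had 0.532 ± 0.199 CPM in TT-Seq, 1.22 ± 0.254 in 4sU-Seq, 0.916 ± 0.278 in sheared total RNA and 0.847 ± 0.221 in unsheared total RNA. It fell in TT-Seq against sheared total RNA (-1.11 ± 0.28, adjusted p = 0.000478), and differences between windows were not tested.

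**Figure D4:**
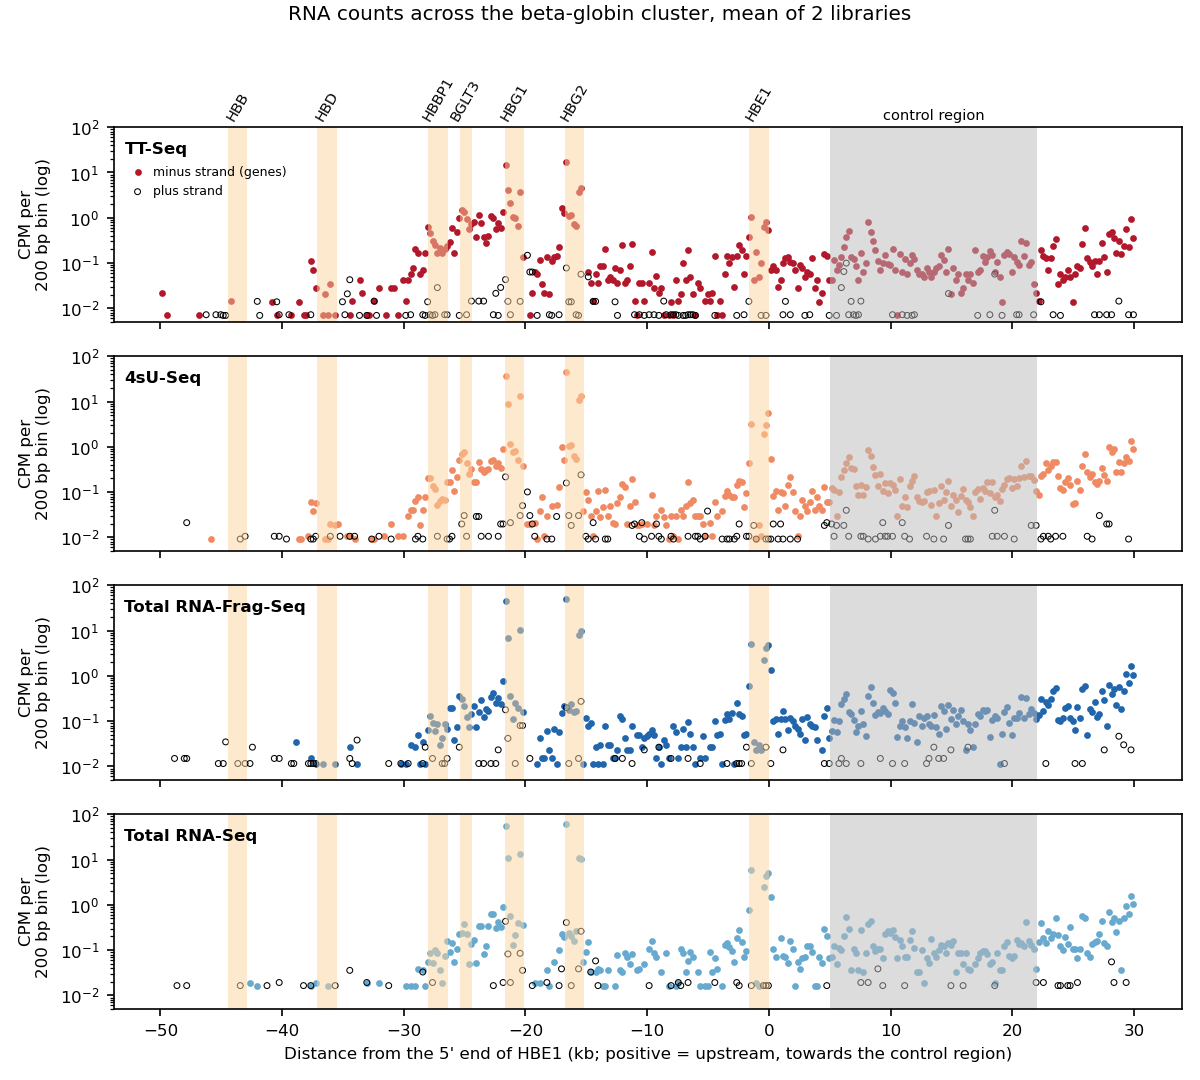
Mean CPM per 200 bp bin (2 libraries, log axis) across the locus for the 4 RNA groups, with filled points for the minus strand, open circles for the plus strand and bins of 0 not drawn, against distance in kb from the 5′ end of HBE1. In TT-Seq the intervals around BGLT3 and between HBG1 and HBG2 stand out against Total RNA-Frag-Seq, while the control region (grey) is filled on the minus strand in all 4 groups, at 0.608 to 0.796 CPM per kb.

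The plus strand was sparse. In the control region it held 37 and 21 counts in TT-Seq, 24 and 22 in 4sU-Seq, 11 and 7 in sheared total RNA, and 5 and 5 in unsheared total RNA. The purified libraries had more than the unpurified ones, but as a share of the library the change did not pass (TT-Seq against sheared total RNA 0.47 ± 0.41, adjusted p = 0.299; 4sU-Seq against unsheared total RNA 1.12 ± 0.50, adjusted p = 0.0551). The call in 4sU-Seq against unsheared total RNA depended on the setting: the strand was called higher without scaling beyond the library total (1.34, adjusted p = 0.0257), without the filter on low counts (1.20, adjusted p = 0.0431), with only the 4 libraries compared (1.14, adjusted p = 0.0344) and with any bin that touches (1.21, adjusted p = 0.039). The window from 5276001 held 27 plus counts in TT-Seq, 7 in 4sU-Seq, 1 in sheared total RNA and 0 in unsheared total RNA, each over both libraries. It held the most plus counts in the 2 purified groups but not in the others. Between TT-Seq and sheared total RNA this is a ratio of 14.7 in CPM (95% interval 2.43 to 603). The window from 5288001 had 9 counts in TT-Seq and 0 in sheared total RNA, 1.64-fold higher against a floor of 3 counts over the group. That value leaves out the counting error of the 9 counts, so it is no lower limit. The window from 5275001 had 5 and 2 counts, a ratio of 1.36 (0.223 to 14.3). No plus-strand window of the control region passed the filter for a test.

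Outside the control region 5 other plus-strand regions were tested, and of all 6 TT-Seq was higher than sheared total RNA in 1 and lower in 2. The gap between HBG1 and HBG2 had 13 and 30 plus counts in TT-Seq, 10 and 11 in 4sU-Seq, 0 and 1 in sheared total RNA, and 2 and 3 in unsheared total RNA. TT-Seq was higher than sheared total RNA there (adjusted p = 0.000891), at a ratio of 23.4 (95% counting interval 3.99 to 947), and the 2 groups did not overlap. This gap passed the filter on low counts only through purified libraries, so its call is no independent support for a rise. The fitted change was 3.99 on the log2 scale and 6.79 without sheared total RNA replicate 2, which held the group's single count, so it is no measure of size. Plus counts over HBG1, 8 and 3 in TT-Seq against 13 and 16 in sheared total RNA, fell by 2.58 ± 0.51 on the log2 scale (adjusted p = 0.000132), and those over HBG2 by 1.77 ± 0.41 (adjusted p = 0.000637). These plus counts lie opposite the 2 most abundant members, whose minus strand held 98.9 to 99.8% of the counts in the 8 libraries, and reads given to the wrong strand cannot be told apart from antisense RNA here. In 4sU-Seq against unsheared total RNA the same pair fell, HBG1 by 1.27 ± 0.39 (adjusted p = 0.00765, lost without unsheared total RNA replicate 1 at -1.12 and with only bins wholly inside at -1.41) and HBG2 by 0.84 ± 0.35 (adjusted p = 0.0433, lost without any single one of the 4 libraries, without scaling, without the filter on low counts, by DESeq2's Wald test and with any bin that touches, at -0.61 to -0.96). The plus strand above the control region was not called in TT-Seq against sheared total RNA (-1.30 ± 0.68, adjusted p = 0.0879), but was called lower without TT-Seq replicate 1 (-2.27) or sheared total RNA replicate 2 (-1.89).

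The authors' segmentation placed 5 units in the locus. Their mRNA-class unit on the minus strand from 5232247 to 5234004 was named HBD here, by its overlap with the RefSeq gene. It starts inside that gene, downstream of the promoter printed above, and runs past its 3′ end. It had 15 and 25 counts in TT-Seq, 13 and 7 in 4sU-Seq, 2 and 1 in sheared total RNA, and 2 and 1 in unsheared total RNA. The purified libraries lay above the unpurified ones without overlap. TT-Seq was higher than sheared total RNA (2.45 ± 0.70, adjusted p = 0.00348), a ratio of 7.27 from 40 against 3 counts (95% counting interval 2.32 to 36.7), while 4sU-Seq against unsheared total RNA did not pass (1.62 ± 0.80, adjusted p = 0.0812). This unit passed the filter on low counts only through purified libraries. The authors' unit borders may also follow the counts of these same libraries, so the call is no independent support for a rise. Over the RefSeq gene itself, 11 counts in TT-Seq against 2 in sheared total RNA gave a ratio of 3.00 (0.655 to 27.8). In the authors' deposited table this unit stood above 53.4% of all units for synthesis rate and above 87.4% for decay rate.

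An antisense unit (asRNA) on the plus strand from 5250052 to 5250533, in the gap between HBG1 and HBG2, had 11 and 28 counts in TT-Seq, 6 and 9 in 4sU-Seq, 0 and 1 in sheared total RNA, and 1 and 0 in unsheared total RNA. It held most of the plus counts of that gap. The ratio of TT-Seq to sheared total RNA was 21.3 (95% counting interval 3.60 to 861), and that of 4sU-Seq to unsheared total RNA 8.33 (1.28 to 351). The authors placed 2 enhancer RNA (eRNA) units in the control region, both on the plus strand, although the minus strand held nearly all of its counts. The unit from 5275761 to 5277630 had 25 and 10 counts in TT-Seq, 4 and 4 in 4sU-Seq, 2 and 1 in sheared total RNA, and 0 and 1 in unsheared total RNA, a ratio of 6.36 (2.01 to 32.3) for TT-Seq over sheared total RNA. The unit from 5288347 to 5288536 had 4 and 4 counts in TT-Seq, 2 and 2 in 4sU-Seq, 0 and 0 in sheared total RNA, and 1 and 0 in unsheared total RNA. Against a floor of 3 counts over the sheared total RNA group, TT-Seq stood 1.45-fold higher. That value leaves out the counting error of the TT-Seq counts, so it is no lower limit. These 3 units did not pass the filter on low counts and were not tested. In the authors' deposited table the asRNA ranked above 76.5% of units for synthesis rate and 90.7% for decay rate, and the eRNAs above 39.9 and 14.9% for synthesis rate and 89.7 and 96.1% for decay rate. Among all eRNA units tested, 1589 of 1911 were higher in TT-Seq than in sheared total RNA, and among asRNA units 2286 of 3205. Units of these classes may have been drawn where labelled RNA lay, so these counts and the ratios above are no independent support for a rise.

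The authors' remaining unit, of an ambiguous class, was given the symbol OR51B5 here, by overlap with a RefSeq gene. It runs on the minus strand from 5238772 to 5505641 and covers HBBP1 to HBE1, the control region and the sequence beyond. It had 45338 and 46907 counts in TT-Seq, 52540 and 43219 in 4sU-Seq, 50115 and 39588 in sheared total RNA, and 30492 and 26086 in unsheared total RNA. HBG1, HBG2 and HBE1 held 9.76 and 8.39% of those counts in TT-Seq, 14.5 and 16.5% in 4sU-Seq, 14.9 and 10.2% in sheared total RNA, and 18.7 and 17.4% in unsheared total RNA, so the unit's values are mostly not those of the globin genes. The unit fell by 1.18 ± 0.06 in TT-Seq against sheared total RNA, and in the authors' deposited table it stood above 31.1% of units for decay rate. HBG1, HBG2 and HBE1 thus have no unit of their own, and no rate is given for them here.

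RNA polymerase II was sparse over the expressed globin genes in these ChIP libraries. At the start of HBG1 the highest of 5 bins had 4 and 0 counts for S2P and 2 and 0 for N20, and at HBG2 8 and 2 for S2P and 0 and 2 for N20. At HBE1 it had 6 and 6 counts for S2P and 4 and 4 for N20. Each of these was below the median of 7810 mRNA-class starts, which was 50 and 44 counts for S2P and 32 and 66 for N20. HBE1 lay above 4.65 and 7.23% of those starts for S2P and 8.19 and 4.34% for N20. HBB, at or near 0 in RNA, had 16 and 10 counts for S2P and 4 and 4 for N20, no fewer than the expressed genes. How reads matching both gamma genes were placed bears on these values too, and its part was not tested.

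S2P was set against N20 on the same regions, without an input library. Of 12 tested, 1 was higher, 2 were lower and 9 did not pass, where 41.2% of all rows were called, 22.4% higher and 18.9% lower. The stretch above the control region had 826 and 496 counts for S2P (1.40 and 1.80 CPM per kb) against 76 and 110 for N20 (0.754 and 0.589 CPM per kb), with a genome mean of 0.324. Both S2P libraries lay above both N20 libraries, and S2P was higher by 1.31 ± 0.29 on the log2 scale (adjusted p = 0.00261 by edgeR's quasi-likelihood test), a call lost without N20 replicate 2 (1.10, adjusted p = 0.095). Its highest 1 kb window, from 5294001, had 666 and 434 counts for S2P and 62 and 74 for N20, and ranked above 99.8% of windows for S2P and 99.5% for N20. That window itself did not pass (1.54 ± 0.49, adjusted p = 0.0834).

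The 2 lower calls rest on few counts. The gap from BGLT3 to HBG1 had 4 and 4 counts for S2P against 6 and 10 for N20 (-2.42 ± 0.84, adjusted p = 0.0329), and was not called without S2P replicate 1 (-1.82) or N20 replicate 1 (-2.31), without the filter on low counts (-2.39, adjusted p = 0.0734) or by DESeq2's Wald test (-2.36, adjusted p = 0.166). The gap between HBG1 and HBG2 had 16 and 0 counts for S2P against 8 and 20 for N20 (-2.38 ± 0.84, adjusted p = 0.0371), and was not called without S2P replicate 2 (-1.64) or N20 replicate 2 (-2.19), with DESeq2 size factors (adjusted p = 0.0516), without scaling (adjusted p = 0.0642) or by the Wald test (adjusted p = 0.101). Without S2P replicate 1 its change was -7.14, with the remaining S2P library at 0 counts. The gap from HBBP1 to BGLT3 had 442 and 70 counts for S2P against 26 and 22 for N20, at 6.0 and 2.03 CPM per kb for S2P. Its S2P mean was the highest of the 17 regions, though below that of the single window from 5294001. It did not pass (1.60 ± 0.63, adjusted p = 0.0786), with the S2P libraries far apart, and it was called higher without S2P replicate 2 (2.26) or N20 replicate 1 (2.25) and by the Wald test (1.57, adjusted p = 0.0256). HBBP1, with 166 and 18 counts for S2P against 14 and 14 for N20, did not pass either (0.92 ± 0.72) and was called higher without S2P replicate 2 (1.64).

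The control region had 164 and 40 counts for S2P (0.131 and 0.0683 CPM per kb) against 42 and 74 for N20 (0.196 and 0.186 CPM per kb). Every one of these lies below the genome mean of 0.324, which is not the level of a typical window. The region's 1 kb windows ranked above 60.7 to 87.9% of all windows for S2P and 60.7 to 82.7% for N20. Windows dropped for few counts were ranked below, so even 0 counts gave 60.7%. Both S2P levels of the region lie below both N20 levels. The difference did not pass (-0.82 ± 0.38, adjusted p = 0.101), and it was called lower without S2P replicate 1 (-1.40, adjusted p = 0.00336). Of the 10 windows of the locus tested, 2 lie in the control region. edgeR called 0 of the 10, where 4.39% of all windows were called, 3.69% higher and 0.702% lower. Of those 10, 4 had an unadjusted p under 0.05 and DESeq2's Wald test called 1. Leaving out S2P replicate 2, edgeR called 4 of 17 windows higher, and leaving out S2P replicate 1 it called 1 of 13 higher and 1 lower. The window from 5288001 had 10 and 2 counts for S2P and 6 and 12 for N20 (-2.18 ± 0.89, adjusted p = 0.189), and that from 5278001, the one with the most RNA, had 32 and 4 for S2P and 4 and 14 for N20 (-0.67 ± 0.76, adjusted p = 0.728).

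**Figure D5:**
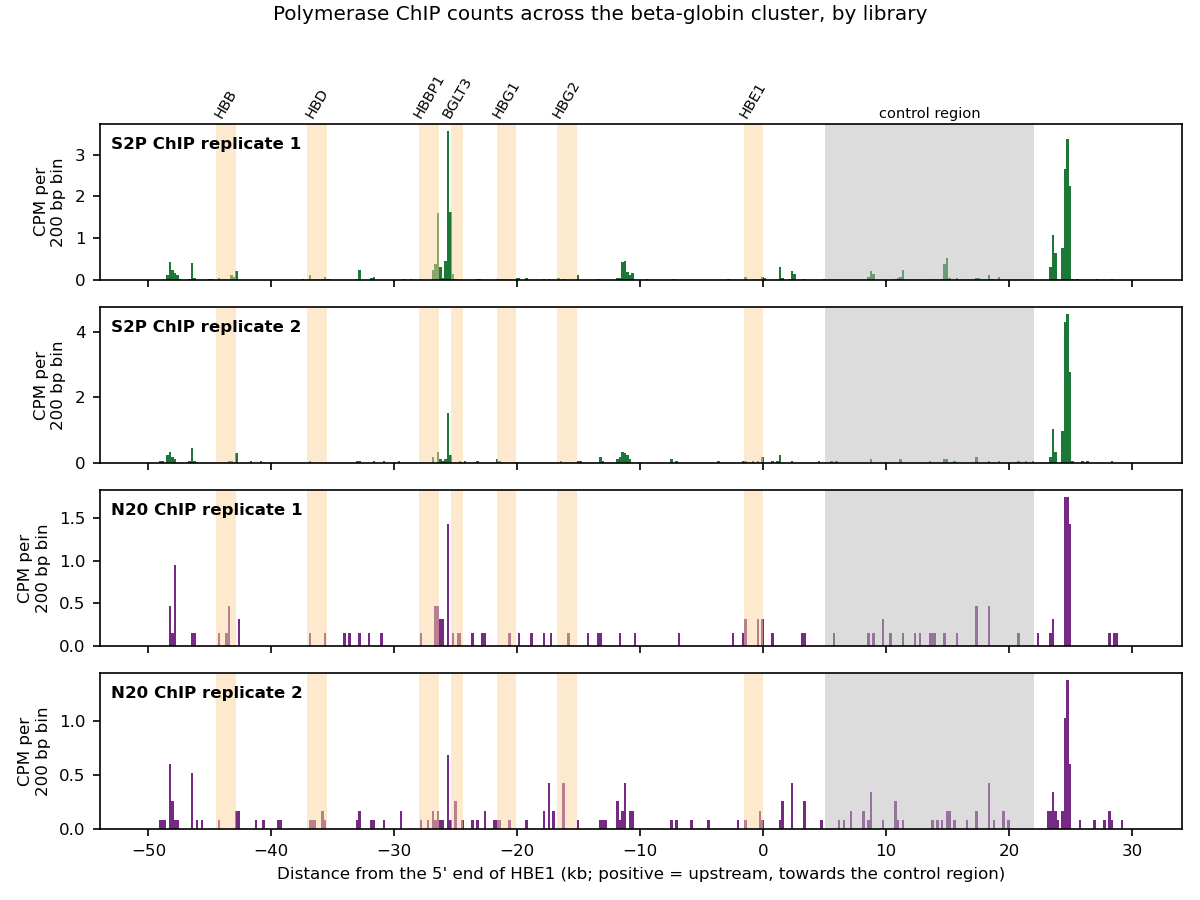
CPM per 200 bp bin across the locus in each S2P and N20 library, each on its own y axis, against distance in kb from the 5′ end of HBE1. The highest bins lie between HBBP1 and BGLT3 and above the control region in S2P, where the window from 5294001 held 666 and 434 counts, and the globin genes and the control region are low in all 4 libraries.

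Other genes of the globin system were read from lists. No gene of the alpha-globin cluster on chromosome 16 was matched to a unit of its own, and levels on the plus strand, the coding strand, are given without a test. HBZ, the embryonic zeta chain, had 3.73 ± 0.0458 CPM per kb in TT-Seq, 15.4 ± 2.03 in 4sU-Seq, 11.8 ± 2.84 in sheared total RNA and 16.5 ± 0.373 in unsheared total RNA (SD, n = 2 each). HBQ1, the theta gene, had 7.77 ± 0.366 CPM per kb in TT-Seq and 21.3 ± 1.69 in sheared total RNA. HBA1, an adult alpha gene, had 0.497 ± 0.149 CPM per kb in TT-Seq and 1.39 ± 0.0994 in sheared total RNA, and HBA2, its near-identical copy, 0.0213 ± 0.00957 and 0.0416 ± 0.026. HBZ, HBQ1 and HBA1 thus had their lowest mean in TT-Seq, as HBE1, HBG1 and HBG2 did.

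Of 10 haem synthesis genes 9 were tested, and in TT-Seq against sheared total RNA 0 rose and 9 fell, with a median change of -0.56 on the log2 scale beside 0.13 over all rows. In that comparison 44.7% of all rows were higher and 36.4% lower, but of 7809 mRNA units tested 1532 were higher and 4584 lower, with a median of -0.31, so most mRNA units also fell. UROD, the uroporphyrinogen decarboxylase, changed by -1.68 ± 0.11, and ALAS2, the erythroid first enzyme of the pathway, by -0.56 ± 0.11. Of 23 globin regulators 18 were tested, of which 2 rose and 9 fell (median -0.18). MYB, a transcription factor of early erythroid cells, rose by 0.26 ± 0.07 and LIN28B, an RNA-binding protein of fetal-type cells, by 0.32 ± 0.06, while LDB1, which bridges the control region and the globin promoters, changed by -1.36 ± 0.08 and CHD4, a chromatin remodeller, by -1.5 ± 0.08. Of 17 erythroid surface and cytoskeleton genes 11 were tested, of which 2 rose and 6 fell (median -0.21), TFRC, the transferrin receptor, rising by 0.31 ± 0.05. Of the 18 markers of other cell types 7 were tested, of which 1 rose and 5 fell (median -1.80). In 4sU-Seq against unsheared total RNA 0 haem synthesis genes rose and 7 fell, 1 regulator rose and 11 fell, 5 surface genes rose and 5 fell, and 2 markers of other cell types rose and 5 fell. There 34.9% of all rows were higher and 32.8% lower, and of the mRNA units 1128 were higher and 4492 lower, with a median of -0.27. No list count is read as particular to its list.

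Named genes with the most similar pattern over the 4 group means were found by Euclidean distance between centred log2 levels, among 8176 candidates and from 8 libraries. Nearest to HBE1 were SRRM2 (distance 0.0856), PGGHG (0.131) and UBB (0.166). Near HBG1 were TRIR (0.0288) and CD63 (0.0411), and nearest to HBG2 were DAZAP1 (0.0246), PSMB4 (0.0301) and PLSCR3 (0.0336). HBE1 stood at -1.66 in TT-Seq on the centred log2 scale and HBG1 at -0.97, and the nearest gene to HBE1 lay farther off than any of the 5 named for the gamma genes.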

How the data were processed

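Reads from 8 RNA libraries (stranded) and 4 ChIP libraries of K562 were counted by the authors in 200 bp bins of hg38, and the deposited counts are raw. Tools named, without their roles, per the submitters' processing notes are Bowtie2 2.1.0, SAMtools and STAR 2.3.0. Deposited synthesis and decay rates have no given unit, and only their ranks, as percentiles computed here, are printed as scores of the authors' deposited table. Exon and intron tables were not used.

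Counts were summed over 17 regions per strand and the authors' 21874 units, a bin going to the region that holds its centre. Rows were filtered with filterByExpr (minimum total count 15), scaled by TMM on the library total and tested across all 8 RNA or all 4 ChIP libraries with edgeR 4.0.16 (robust quasi-likelihood, R 4.3.3, Benjamini-Hochberg, threshold 0.05) over 19362 RNA rows, 19944 ChIP rows and 1 kb windows. DESeq2 1.42.0 was an alternative. The script was tested on simulated data with 200 changed rows. Standard errors were taken from the fold change and the F statistic. All non-zero ChIP bin counts were even; the reason is not stated, and halved counts were tried after the data were seen.

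The design text calls the RNA libraries biological duplicates; for ChIP no source does, and the spread between those libraries may be technical. The floor is 3 counts, and intervals are 95% and cover counting error only. Named genes were the members, the fixed lists and the 3 nearest by pattern; control region windows were the 3 highest. Some items under this rule are not reported here. Members and lists were chosen with earlier results of these data known. Alternatives were other scaling, no filter, DESeq2, fewer libraries, each replicate left out, a replicate block, other bin rules and other windows.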

Additional observations from a re-analysis of the deposited data

Results flagged for a closer look

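The effect of purification differed between sheared and unsheared RNA in 9 minus-strand regions by the interaction term (edgeR's quasi-likelihood test, 8 libraries). It was higher with shearing, on the log2 scale, for the gap from BGLT3 to HBG1 (1.18), HBBP1 (1.16), BGLT3 (1.15) and the gap between HBG1 and HBG2 (0.90). It was lower for HBE1 (-1.98), HBG2 (-1.13), the stretch above the control region (-1.06), HBG1 (-0.92) and the control region (-0.74). Of all rows 34.5% were called in this comparison. The difference in the gap from BGLT3 to HBG1 turned to -0.65 when any bin touching it was counted.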

How the results depend on the processing

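Of the single values recomputed under the alternatives, 1397 kept direction and side of the threshold, 70 lost a call, 31 gained one and 3 reversed; of the counts, 757 stayed within 1.5 times and 151 moved. The 3 reversals are the gap from BGLT3 to HBG1 when any bin that touches it is counted, at -1.32 in TT-Seq against sheared total RNA, -0.83 in TT-Seq against 4sU-Seq and -0.65 in the interaction; that setting adds the bin at the end of HBG1. In 4sU-Seq against unsheared total RNA the 4 higher regions became 2 to 5 with a library left out, and the 5 lower became 2 without scaling, 3 with bins wholly inside and 2 to 3 with a library left out. In sheared total RNA against unsheared total RNA the 0 higher became 1 with DESeq2 size factors, no filter, only the 4 libraries, the replicate block or any bin that touches, and 0 to 1 with a library left out; the 0 lower became 2 with the replicate block, 1 with bins wholly inside and 0 to 2 with a library left out. The 4 higher interactions became 2 with DESeq2's Wald test, bins wholly inside or any bin that touches, and 1 to 3 with a library left out. For ChIP regions the 1 higher became 2 with DESeq2's Wald test or the replicate block and 0 to 3 with a library left out; the 2 lower became 1 with DESeq2 size factors, no scaling or no filter, 0 with the Wald test or halved counts (7 tested), and 0 to 2 with a library left out. Of control region windows, the 7 lower in TT-Seq against sheared total RNA became 2 with a filter of 1 CPM (5 tested) and 4 to 8 with a library left out; in 4sU-Seq against unsheared total RNA the 1 higher became 4 without scaling, 0 in 2 kb windows and 0 to 1 with a library left out, and the 1 lower 0 without scaling or with 1 CPM, 2 in 2 kb windows and 0 to 1 with a library left out; the 7 lower in TT-Seq against 4sU-Seq became 4 without scaling, 3 in 2 kb windows (9 windows) and 2 to 5 with a library left out. For ChIP windows the 0 higher became 1 with the Wald test, 3 without the filter and 0 to 4 with a library left out, and the 0 lower 0 to 1. The cause was not tested for the other changes.

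Deviations of same-numbered libraries correlated at 0 to 0.103 for RNA and -0.07 for ChIP. Noise between libraries can hide a shared origin, so whether they share a culture or preparation is not settled by these values. With the replicate block, HBG1 (-0.34) and HBG2 (-0.28) were called lower and the control region (0.28) higher in sheared total RNA against unsheared total RNA, and in ChIP the gap from HBBP1 to BGLT3 (1.40) was called higher and the control region (-0.94) lower. Depth limits HBD, HBB, the plus strand and ChIP, where single regions hold few counts.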
